A study of Homo sapiens with 4 samples.

Results

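Cadherins, protocadherins, calsyntenins, CELSR genes and FAT genes share extracellular cadherin repeats, and 99 protein-coding genes of these families were examined among the 64252 genes of the count table. They were chosen by gene symbol in the GENCODE annotation (CDH with a number, every PCDH gene, CLSTN, CELSR and FAT), and no count entered that rule. The group, and the lists of partner genes below, were nevertheless put forward with earlier results of the same comparison known. Counts of members and of genes in these lists are therefore a description and are not independent evidence. The study asked which genes depend on SAPCD2 in neuroblastoma. RNA-seq was run on SK-N-BE(2), an established human neuroblastoma cell line, carrying a scrambled shRNA (sh-Scb, 2 libraries) or an shRNA against SAPCD2 (sh-SAPCD2, 2 libraries). All cells of both groups had been infected with lentivirus and selected with puromycin to make stable lines. Neither the labels nor the methods say whether a line was 1 clone or a pool, or whether the libraries of a group came from separate cultures, so p-values measure only the spread between these libraries.

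Classical cadherins join neighbouring cells through calcium-dependent binding of like to like, and their cytoplasmic tails bind catenins, which link them to actin. Clustered protocadherins are transcribed from 3 neighbouring gene arrays in which each neuron uses its own choice of promoters, giving cells a surface identity used in self-avoidance of neurites. Calsyntenins are synaptic membrane proteins that also tie cargo vesicles to kinesin motors, CELSR proteins are multi-pass receptors of planar cell polarity, and FAT proteins are giant cadherins that signal to growth and polarity pathways. Neural crest cells, from which neuroblastoma arises, express CDH2, CDH11 and several type II cadherins as they migrate.

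Libraries held 25347900 to 31850997 counts, and 3 counts, taken as the least that this depth can show, equaled 0.0955 to 0.119 CPM (TMM-scaled counts per 1e6). This floor covers counting error only. SAPCD2 itself had 83.6 and 82.2 CPM in the sh-Scb libraries and 35.4 and 52.5 CPM in the sh-SAPCD2 libraries, which is 42.7% and 63.3% of the control mean. Its log2 fold change was −0.91 (SE 0.193, adjusted p = 0.0206). Of 7 adrenergic neuroblastoma markers, all were measured, 2 were called lower (ISL1, DBH) and their summed level was 2657, 2574, 2145 and 2876 CPM in the order sh-Scb 1, sh-Scb 2, sh-SAPCD2 1, sh-SAPCD2 2, which is the order used for all values below. Of 9 mesenchymal or Schwann cell precursor markers, 2 were called higher (FOSL1, TNC) and 1 lower (FN1), PRRX1 and SOX10 had no count in any library, and the summed level was 202.0, 205.4, 192.5 and 175.0 CPM. Summed levels were 4.05, 5.74, 3.59 and 4.65 CPM for 3 epithelial markers, 9.70, 8.94, 12.4 and 10.6 CPM for the immune marker PTPRC, and 0.0724, 0.0727, 0.711 and 0.892 CPM for the endothelial markers VWF and PECAM1, of which VWF was called higher. The part of these shifts in the results below was not tested. In bulk RNA, fewer cells expressing a gene and less RNA per cell cannot be told apart.

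Knockdown of SAPCD2 went with a mixed picture across the group, in which single members of most families rose or fell. Of the 99 members, 82 passed the filter on low counts, 9 of these were called higher and 8 lower at an adjusted p under 0.05 (edgeR quasi-likelihood test, Benjamini-Hochberg adjustment over all 18779 genes tested). Over all genes tested, 12.4% were called higher and 12.5% lower, against 10.98% and 9.76% of the tested members. With an absolute log2 fold change over 1 as well, the criterion the study used for DEGs, 3 members were higher (CDH20, PCDH19, CLSTN3) and 6 lower (CLSTN2, PCDHGA9, FAT3, PCDHB13, PCDHGB2, CDH7), where 4.69% and 5.15% of all genes were. These shares lie near the background and say nothing particular about the group. The median log2 fold change was 0.18 over the tested members and 0.02 over all genes tested, and 49 members had a value above 0 and 33 below. The 46 members outside the protocadherin clusters held 6 of the higher and 4 of the lower calls among 31 tested. The 53 clustered protocadherins held 3 and 4 among 51 tested.

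**Figure D1:**
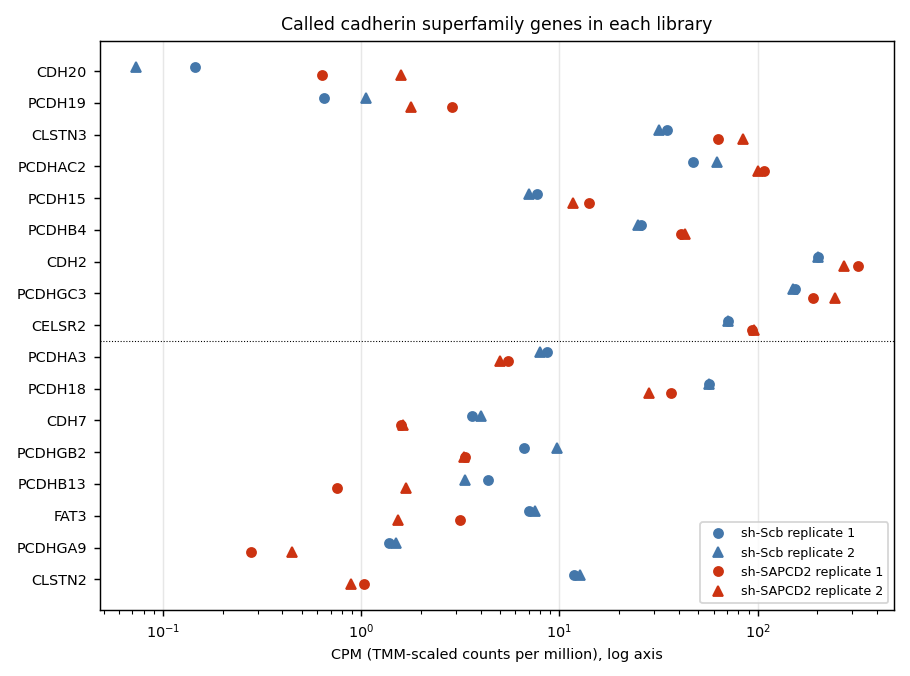
CPM of the 17 called members in each of the 4 libraries, on a log axis, with sh-Scb and sh-SAPCD2 libraries in separate colours and each point 1 library. CLSTN2 shows the widest gap (11.9 and 12.8 against 1.03 and 0.892 CPM).

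These counts moved when single libraries were left out. Each such fit leaves 1 library in a group, so the spread comes from the other group alone. Member calls fell without either sh-Scb library and rose without either sh-SAPCD2 library. Calls over all genes tested moved in the same directions, so these shifts say nothing particular about the group. With the fold criterion added, higher members rose in number in each of the 4 fits, and the share over all genes was not counted. CLSTN2 and CLSTN3 were called in each of the 13 alternative fits of all members, which is true of no other member. The other 17 members did not pass the filter. Among these, CDH1 (E-cadherin, the epithelial cadherin), CDH6, CDH9, CDH19 and PCDH11X had no count in any library. The vascular cadherin CDH5 had 11, 0, 8 and 3 counts, and PCDH8 had 6, 14, 0 and 3. CDH8, CDH10, CDH12, CDH13, CDH16, CDH17, PCDH10 and PCDHGB5 had at most 6 counts in a library, and PCDHB1 had 11, 0, 9 and 3.

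The most abundant members per length, given as mean CPM per kilobase of exon over the 4 libraries, were CDH24 (53.8), CLSTN1 (40.3), PCDHGC3 (34.1), CDH2 (29.1) and PCDHAC2 (12.9). CDH24 is a type II classical cadherin, and the last-named protocadherin is a C-type gene at the end of the alpha cluster. In sh-Scb libraries CDH24 had 44.4 and CLSTN1 37.5 CPM per kilobase, and in sh-SAPCD2 libraries they had 63.1 and 43.0. PCDHGC3 went from 28.0 to 40.3 and CDH2 from 23.6 to 34.7 CPM per kilobase, so the order of these 4 genes was the same in both groups. Of the 5, CDH2, PCDHGC3 and PCDHAC2 were called higher, and CDH24 and CLSTN1 were not called.

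Among the calsyntenins, CLSTN2 fell to about 1 CPM, CLSTN3 rose and CLSTN1 was not called. CLSTN2 (ENSG00000158258, plus strand of chr3:139935185-140577397, hg38) had 329, 351, 26 and 28 counts, which are 11.9, 12.8, 1.03 and 0.892 CPM. Both sh-SAPCD2 libraries were far below both sh-Scb libraries, and replicates of a group lay close to each other. Its mean fell from 12.3 ± 0.599 to 0.959 ± 0.0958 CPM (SD, 2 libraries each), a control level 12.9 times the knockdown level, with a log2 fold change of −3.68 (SE 0.217, 95% interval −4.21 to −3.16, adjusted p = 0.00201). Over the 13 alternatives the log2 fold change ran from −3.79 to −3.58. CLSTN2 is a postsynaptic membrane protein. No exonic base of it is shared with another annotated gene.

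CLSTN3 (ENSG00000139182, chr12:7129698-7158945, plus strand), which induces presynaptic contacts, had 34.8, 31.7, 62.8 and 84.7 CPM. Its mean rose from 33.2 ± 2.14 to 73.7 ± 15.5 CPM, a log2 fold change of 1.15 (SE 0.170, 95% interval 0.74 to 1.56, adjusted p = 0.00759). The sh-SAPCD2 libraries differed from each other by more than the sh-Scb libraries did, but neither came near the control level. CLSTN1 (ENSG00000171603), the calsyntenin that binds kinesin light chain, had 195.2, 198.2, 217.4 and 233.4 CPM and a log2 fold change of 0.20 (95% interval −0.04 to 0.43, adjusted p = 0.185). With 1 library left out its log2 fold change ran from 0.15 to 0.24. In CPM per kilobase, CLSTN1, CLSTN3 and CLSTN2 followed in this order in both groups (37.5, 4.94 and 0.845 in sh-Scb, 43.0, 10.96 and 0.0657 in sh-SAPCD2 libraries).

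Of 13 cargo and adaptor partners of calsyntenins, 12 were tested, 5 were called higher and 0 lower, with a median log2 fold change of 0.43. With all 4 libraries, 12.4% of all genes tested were called higher and 12.5% lower. These shares are the background of each list that follows in the fit of all 4 libraries only. KIF5C, a neuronal kinesin heavy chain, rose from 104.6 ± 1.35 to 248.6 ± 27.6 CPM (log2 fold change 1.25, SE 0.115, adjusted p = 0.00297). The other 4 were APP (0.43, adjusted p = 0.025), the amyloid precursor protein, its adaptor APBA2 (0.66, 0.0305), its homologue APLP1 (0.57, 0.0318) and the kinesin light chain KLC2 (0.60, 0.0372). KLC2 and APBA2 had a larger SD in the sh-SAPCD2 group (15.1 and 18.5 CPM) than in the sh-Scb group (0.167 and 4.09 CPM). Calls in this list fell without either sh-Scb library and rose without sh-SAPCD2 replicate 1, as did calls over all genes tested.

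The guide arm of the shRNA and the sequences it could pair with are shown for CLSTN2 because it is the member with the steepest fall. The study lists its shRNAs, and its heat map of these libraries names the first of them, whose sequences are given with guide bases 2 to 8 in capitals.
guide arm: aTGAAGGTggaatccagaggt
passenger arm: acctctggattccaccttcat
The 3′ UTR of CLSTN2 is 11144 bases long in the GENCODE model and holds 2 copies of ACCTTCA, the complement of guide bases 2 to 8. The first lies at chr3:140571969-140571975 and the second at chr3:140576677-140576683, with the 7 bases in capitals within 30 bases of hg38 sequence.
CLSTN2 site 1: taattcagcagACCTTCActgggcacttgt
CLSTN2 site 2: cttgcagaatcACCTTCAatcactgctact
FAT3 also holds the 7 bases, at chr11:92892029-92892035, and CDH7 at chr18:65881258-65881264.
FAT3 site: gaaaaaacgatACCTTCAaagtttgcggcc
CDH7 site: gccctgtacatACCTTCAtggtactgtcat
ACCTTCA occurred in the 3′ UTR of 3 of the 8 members called lower (CLSTN2, FAT3, CDH7), 2 of the 9 called higher (PCDH15, PCDHB4) and 1 of the 65 tested members not called, against 12.5% of 13580 tested protein-coding genes. TCCACCT (complement of guide bases 5 to 11) and AGAGGTC (from the passenger side) were taken from earlier results of these data. Counts with them added are therefore a description and not independent evidence. At least 1 of the 3 words was held by 6 of 8 lower, 3 of 9 higher and 29 of 65 uncalled members, against 30.7% of all. Median 3′ UTR length was 2434 bases in the lower, 1702 in the higher and 1802 in the uncalled members, and 1346 over all genes. The 3′ UTRs of FAT3 and CDH7 were 5360 and 9443 bases long. The part of length in these counts was not tested. Most gamma protocadherins count here through 1 AGAGGTC in the 3′ UTR they share (chr5:141512229-141512235), which lower (PCDHGA9, PCDHGB2) and higher (PCDHGC3) members carry alike. The part of such matches in any fall was not tested.

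Of the 5 type I classical cadherins, which carry adhesion of neural, muscle and epithelial cells, 4 were tested and 1 was called higher. CDH2 (N-cadherin, ENSG00000170558, chr18:27932879-28177946, minus strand), the main adhesion cadherin of neural cells, had 201.9, 202.8, 322.2 and 273.3 CPM. Both sh-SAPCD2 libraries were above both sh-Scb libraries, which nearly coincided. Its mean rose from 202.4 ± 0.640 to 297.8 ± 34.6 CPM, a log2 fold change of 0.56 (SE 0.114, 95% interval 0.28 to 0.83, adjusted p = 0.0188). The call was lost without either sh-Scb library, at almost the same fold change (0.55 and 0.56, adjusted p = 0.206 and 0.200). CDH4 (R-cadherin, of retina and brain) had 1.81, 2.14, 3.24 and 4.11 CPM, with no overlap between groups, and a log2 fold change of 0.90 (adjusted p = 0.0541). Without sh-SAPCD2 replicate 1 it was 1.05. With 2 libraries a group, the groups of many uncalled members separate too, so a lack of overlap, here or below, describes the values and adds no support. Its share over all genes was not counted. CDH3 (P-cadherin) had 0.941, 1.31, 1.19 and 1.78 CPM, and its groups overlapped (0.41, adjusted p = 0.465). CDH15, the muscle cadherin, stayed below 2 CPM in every library (2.26, adjusted p = 0.0592). Fits in edgeR with protein-coding genes only, a replicate block or a loess correction for GC content and length called it higher. DESeq2, the other scalings and the fit without a filter did not.

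Of the 13 type II classical cadherins, 6 were tested, with CDH20 called higher and CDH7 lower. CDH24 had 166.1, 166.8, 201.2 and 271.7 CPM, so its groups did not overlap, yet the sh-SAPCD2 libraries lay far apart (0.51, SE 0.154, 95% interval 0.13 to 0.88, adjusted p = 0.0592). Its log2 fold change was 0.70 without sh-SAPCD2 replicate 1 and 0.28 without replicate 2, in fits whose spread came from the sh-Scb libraries alone. DESeq2 called it higher (0.52, adjusted p = 0.00838). The loess correction for GC content and length in edgeR did so too, at a smaller fold change of 0.24 (adjusted p = 0.0167). CDH11 (cadherin of mesenchyme and neural crest) was level, with 67.3, 66.4, 70.0 and 67.1 CPM and a log2 fold change of 0.04 (95% interval −0.22 to 0.29, adjusted p = 0.826), which was −0.0007 without sh-SAPCD2 replicate 1.

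CDH7, a cadherin of migrating neural crest, had 3.62, 4.03, 1.58 and 1.62 CPM. Both sh-SAPCD2 libraries were below both sh-Scb libraries, and the log2 fold change was −1.25 (SE 0.245, adjusted p = 0.0165). Without sh-Scb replicate 2 the adjusted p was 0.0744 at −1.17. CDH20 (chr18:61333430-61555779, plus strand) had only 4, 2, 16 and 50 counts. Its sh-Scb libraries sat at the floor, so the fitted log2 fold change of 3.32 (adjusted p = 0.0223) rests on very few control counts. The ratio of summed counts, scaled for library size, was 10.7 (exact 95% interval 4.66 to 30.2, counting error only). Without sh-SAPCD2 replicate 2 its adjusted p was 0.0789 and the log2 fold change 2.49. Of the 5 other cadherins (CDH13, CDH16, CDH17, CDH23, CDH26), 2 were tested and none was called.

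Of 12 catenins and actin-linking proteins, 11 were tested, 0 were called higher and 1 lower, with a median log2 fold change of −0.02, where 12.4% of all genes tested were called higher and 12.5% lower. The one called was PKP4, a p120-catenin relative, which fell from 75.0 ± 0.0802 to 54.3 ± 1.58 CPM (−0.47, adjusted p = 0.0256). CTNNB1, beta-catenin, had a log2 fold change of −0.02. Of 11 regulators of classical cadherin transcription (the SNAI, ZEB, TWIST and E-protein families, KLF8, GRHL2 and ELF3), 7 were tested and only TCF4 was called, lower (584.0 ± 0.402 to 344.8 ± 55.2 CPM, −0.76, adjusted p = 0.0112). TCF4 is an E-protein of neural progenitors. Of 12 desmosomal and other cadherin-repeat genes outside the rule, 4 were tested and none was called.

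**Figure D2:**
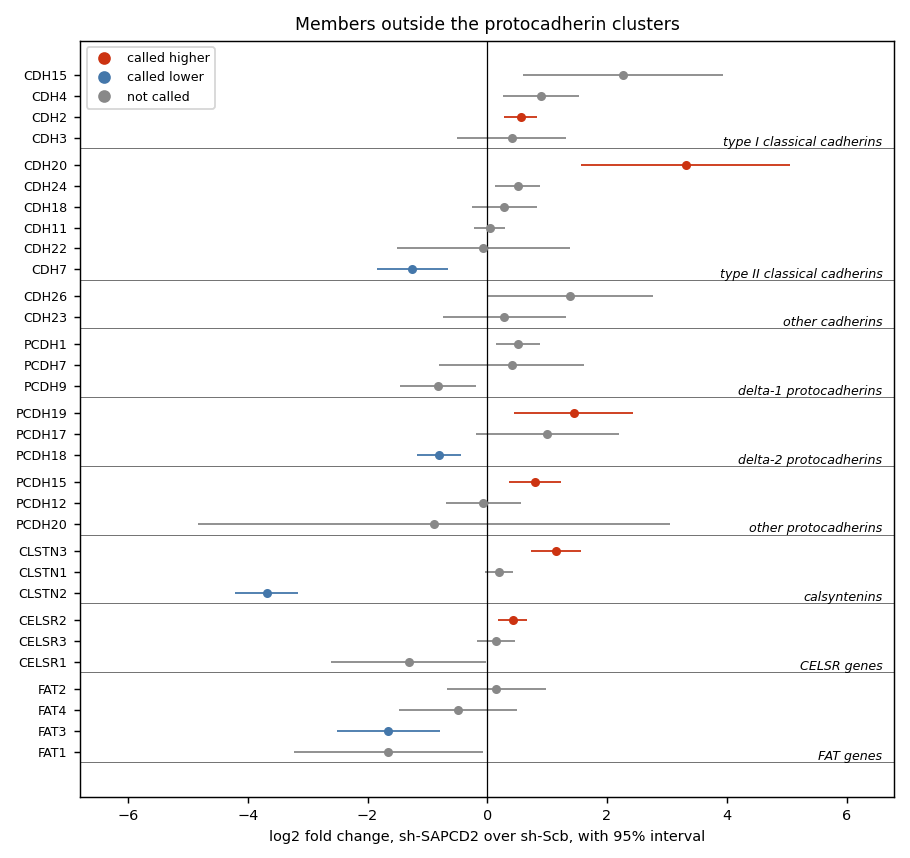
Log2 fold change (sh-SAPCD2 over sh-Scb) with 95% interval for each tested member outside the protocadherin clusters, grouped by family, with called members marked by colour. CLSTN2 lies alone at −3.68, CDH20 has the highest value at 3.32 with a wide interval, and the intervals of CDH11 and CLSTN1 include 0.

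Of the 13 non-clustered protocadherins, 9 were tested, and the 3 called ones moved in different directions. PCDH18, a delta-2 protocadherin, had 56.8, 56.5, 36.5 and 28.4 CPM and fell from a mean of 56.7 ± 0.201 to 32.4 ± 5.68 CPM (−0.81, SE 0.152, adjusted p = 0.0151). Its call narrowly missed the threshold without either sh-Scb library (adjusted p = 0.0522 and 0.0503). PCDH15, known for the tip links of inner-ear hair cells, had 7.71, 7.01, 14.0 and 11.7 CPM and rose (0.80, SE 0.180, adjusted p = 0.0246), with adjusted p = 0.0815 and 0.162 without sh-Scb replicate 1 and 2. PCDH19, the delta-2 gene of an X-linked epilepsy, had 0.652, 1.05, 2.88 and 1.78 CPM and rose (1.44, SE 0.407, adjusted p = 0.0477), with adjusted p = 0.171 without sh-Scb replicate 1 and 0.110 without sh-SAPCD2 replicate 1, and 0.0584 with DESeq2. In all 3 genes the libraries of the groups did not overlap, as was so for every called member and for many uncalled ones. Among the uncalled delta-1 genes, PCDH1 (0.51, adjusted p = 0.0552) and PCDH9 (−0.82, adjusted p = 0.0641) lay near the threshold on opposite sides of 0.

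The clustered protocadherins lie in 3 neighbouring arrays on chromosome 5, alpha at chr5:140786136-141012347, beta at chr5:141051374-141249365 and gamma at chr5:141330514-141512977 on the plus strand. Each alpha and gamma gene adds its own first exon to 3′ constant exons that the whole array shares, whereas beta genes have single exons. All 15 alpha genes shared exonic bases with another gene on the same strand (21.4% to 56.7% of their exon length, median 46.6%), as did all 22 gamma genes (27.5% to 64.4%, median 43.8%). Of the 16 beta genes, 5 shared any, at most 9.54%. How reads in shared exons were divided among genes is not given in the sources used here, so values of single alpha and gamma genes are uncertain. Beta genes are close paralogs, so reads with several matches add a like uncertainty. Outside the clusters 3 of 46 members shared exonic bases, and PCDH20 shared 91.3% of its own.

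Counts were therefore also summed over each array, which does not depend on that division if each read was counted once. Whether reads in shared exons or with several matches were left out or counted for several genes is not known, so the totals keep that uncertainty. The alpha array had 4943, 4773, 6234 and 7347 counts in all, which are 179.0, 173.5, 246.2 and 234.0 CPM, and rose by a log2 fold change of 0.45 (SE 0.0952, 95% interval 0.21 to 0.68, adjusted p = 0.0211). The gamma array had 215.6, 218.5, 273.6 and 298.0 CPM and rose by 0.40 (SE 0.0978, 95% interval 0.16 to 0.63, adjusted p = 0.0318). In both arrays the sh-SAPCD2 libraries were above the sh-Scb libraries. The beta array had 146.7, 133.1, 149.8 and 153.7 CPM, its groups did not overlap either, and its change was not called (0.12, 95% interval −0.13 to 0.37, adjusted p = 0.436). In the fit with summed arrays, 12.5% of the rows tested were called higher. The alpha and gamma calls were both lost without either sh-Scb library (log2 fold changes 0.42 to 0.47 and 0.39 to 0.41, adjusted p = 0.313 and 0.378 for alpha, 0.427 and 0.400 for gamma, without replicate 1 and 2).

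Within the alpha array, most of the rise was counted for PCDHAC2, with the uncertainty of single alpha genes given above. This C-type gene, whose promoter is used without the random choice that governs its neighbours, had 47.2, 62.4, 108.4 and 100.02 CPM, and its mean went from 54.8 ± 10.8 to 104.2 ± 5.90 CPM (0.93, SE 0.157, 95% interval 0.54 to 1.31, adjusted p = 0.0111). Its share of the array's counts was 26.4% and 36.0% in sh-Scb and 44.001% and 42.8% in sh-SAPCD2 libraries (95% Wilson intervals 25.2% to 27.6%, 34.6% to 37.4%, 42.8% to 45.2% and 41.6% to 43.9%). The sh-Scb libraries thus differed from each other beyond counting error, and without sh-Scb replicate 1 the fold change was 0.74 (adjusted p = 0.0825). PCDHA3 was called lower, with 8.65, 7.995, 5.53 and 5.03 CPM (−0.66, SE 0.184, adjusted p = 0.0464). That call was lost without sh-Scb replicate 1 or 2 or sh-SAPCD2 replicate 2 (adjusted p = 0.306, 0.192 and 0.0519), and with DESeq2 (adjusted p = 0.0978). The other 13 alpha genes were not called. The next largest share was that of PCDHA10, at 25.3%, 21.9%, 20.3% and 21.7% of the array's counts.

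Within the beta array, the genes moved in both directions around an array total that was not called. PCDHB4 had 25.7, 25.004, 41.0 and 43.2 CPM, and both sh-SAPCD2 libraries were well above both sh-Scb libraries (25.3 ± 0.468 to 42.1 ± 1.51 CPM, 0.73, SE 0.122, adjusted p = 0.0106). Its share of the array went from 17.5% and 18.8% to 27.4% and 28.1%. The call was lost without sh-Scb replicate 1 or 2 (adjusted p = 0.106 and 0.128), at log2 fold changes of 0.75 and 0.71. PCDHB13 fell, with 4.34, 3.34, 0.751 and 1.69 CPM (−1.63, SE 0.409, adjusted p = 0.0337, and −1.19 to −2.35 with 1 library left out). PCDHB16, the largest share of the array at 32.1%, 34.1%, 32.4% and 27.2%, had a log2 fold change of −0.03 (adjusted p = 0.870). PCDHB4 and PCDHB13 share no exonic base with another gene on the same strand, and PCDHB16 shares 4.84% of its exon.

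Within the gamma array, PCDHGC3 made up most of the counts, at 71.3%, 68.7%, 69.6% and 82.9%. It is a C-type gene transcribed widely beyond neurons. It had 153.6, 150.1, 190.5 and 247.1 CPM and rose from 151.9 ± 2.50 to 218.8 ± 40.0 CPM (0.53, SE 0.142, 95% interval 0.18 to 0.87, adjusted p = 0.0415), and without sh-Scb replicate 1 or 2 the adjusted p was 0.223 and 0.262. The sh-SAPCD2 libraries differed from each other by more than the lower of them differed from the controls. PCDHGB2 had 6.66, 9.78, 3.32 and 3.28 CPM and fell (−1.32, SE 0.251, adjusted p = 0.0154, or 0.0591 without sh-Scb replicate 2). PCDHGA9 had 1.38, 1.49, 0.276 and 0.446 CPM and fell (−1.96, SE 0.419, adjusted p = 0.0216, or 0.0552 and 0.0824 without sh-Scb replicate 1 and 2). The other 18 tested gamma genes were not called, and PCDHGC4, the second C-type gene, went from 9.35% and 8.75% of the array to 6.27% and 2.45%.

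**Figure D3:**
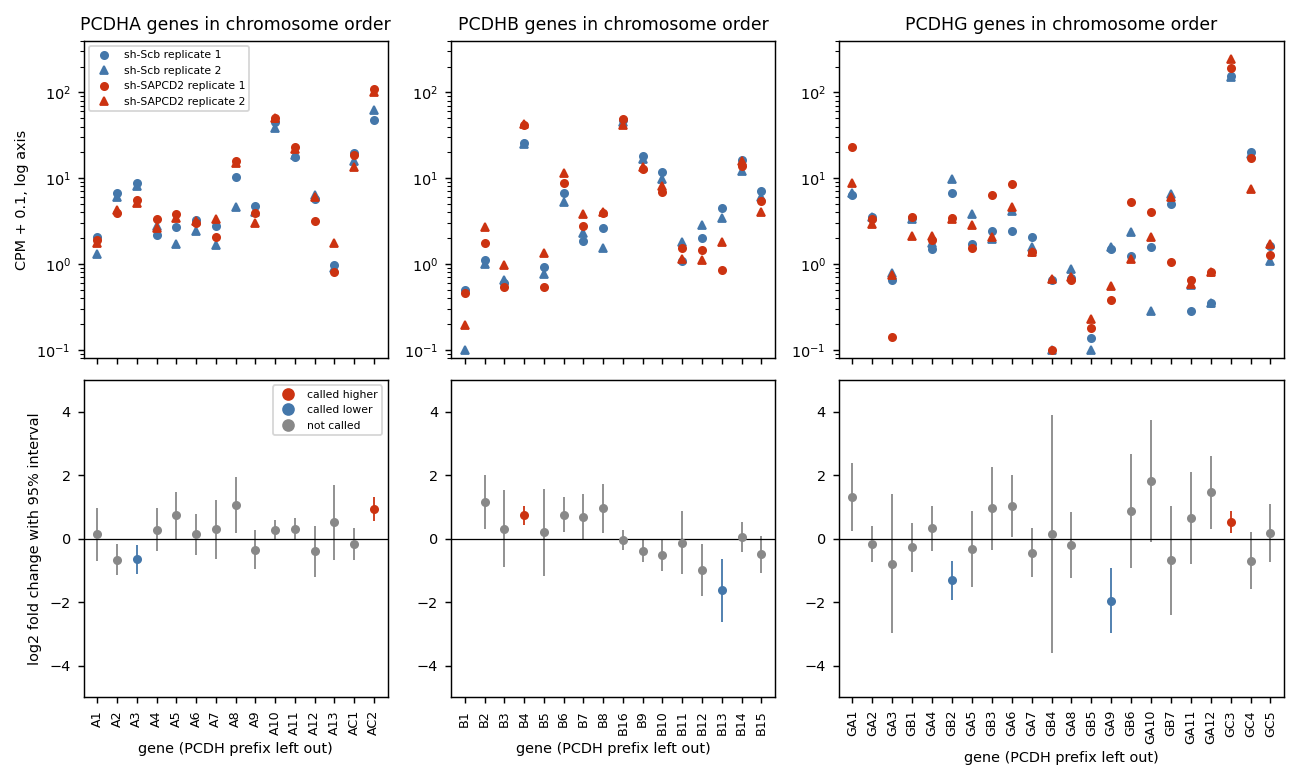
Clustered protocadherins in chromosome order, with CPM + 0.1 of each library on a log axis in the upper row and the log2 fold change with its 95% interval in the lower row for tested genes, in the alpha, beta and gamma arrays. PCDHAC2 at the end of the alpha array (0.93), PCDHB4 (0.73) and PCDHGC3 (0.53) are called higher, and PCDHA3, PCDHB13, PCDHGB2 and PCDHGA9 are called lower.

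Promoters of the arrays carry short conserved elements around a CGCT core, which is where the insulator protein CTCF and the cohesin complex act in this locus. RefSeq promoters (GRCh38.p14, 250 bases before to 50 after the start, on the gene's strand) were found for 77 of the 99 members. In each array the commonest 8-letter word holding CGCT was picked on the gene's strand and then counted on both strands. Its share in its own array is high in part because it was picked there. The word was ATGTCGCT in 9 of 13 alpha promoters (0.282% of all 27305 promoters), GTGGCGCT in 13 of 14 beta promoters (1.38%) and GCCGCTGT in 11 of 20 gamma promoters (1.98%). GCCGCTGT was also in the CDH2 promoter, and neither of the other words was in any of the 30 promoters outside the arrays. The elements of 4 called cluster members are given with the word in capitals, since in the beta and gamma arrays a higher and a lower member carry the same letters. The words were not found in the promoters of the called PCDHAC2 and PCDHGB2, and PCDHA3 was not among the promoters matched.
PCDHB4, called higher, chr5:141121724-141121753: caagacgcaggGTGGCGCTgcaggctaagt
PCDHB13, called lower, chr5:141213866-141213895: gaggacgcgtgGTGGCGCTgcaggataaga
PCDHGC3, called higher, chr5:141475883-141475912: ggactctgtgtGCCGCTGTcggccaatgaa
PCDHGA9, called lower, chr5:141402717-141402746: ggactctgagcGCCGCTGTtgatcaactct
The word began 83, 42, 72 and 50 bases before the annotated start in these 4 genes. A match describes letters and not binding. For comparison, any of the E2F words TTTCCCGC, TTTGGCGC, TTTGCCGC and TTTCGCGC was found in 1 of the 77 member promoters (PCDHA9), against 3.99% of all promoters.

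Of 13 chromatin and insulator genes of the clustered protocadherins, all were tested, 0 were called higher and 8 lower, with a median log2 fold change of −0.49, where 12.4% of all genes tested were called higher and 12.5% lower. The cohesin subunit SMC1A fell from 298.6 ± 4.88 to 122.2 ± 16.1 CPM (−1.29, SE 0.122, adjusted p = 0.00313). The zinc-finger protein WIZ (−1.05, adjusted p = 0.00802), the cohesin subunits STAG1 (−0.74, 0.011) and RAD21 (−0.58, 0.0199) and CTCF itself (−0.49, 0.0222) fell as well. SETDB1, STAG2 and DNMT3B were the other 3 called lower. Lower calls in the list fell without either sh-Scb library and rose without either sh-SAPCD2 library, as did calls over all genes tested. These mRNA levels stand beside array totals that rose for alpha and gamma, and their part in those totals was not tested.

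Of the 3 CELSR genes, CELSR2 was called higher. It had 71.0, 70.5, 94.0 and 95.7 CPM, with replicates that nearly coincided and no overlap between groups, and rose from 70.7 ± 0.316 to 94.9 ± 1.18 CPM (0.42, SE 0.101, 95% interval 0.18 to 0.67, adjusted p = 0.029). The call was lost without either sh-Scb library (adjusted p = 0.393 and 0.407) and after a loess correction for GC content and length, which lowered the fold change to 0.20 (adjusted p = 0.209). CELSR3, which guides axon tracts, had 79.9, 71.7, 76.7 and 91.3 CPM with overlapping groups (0.15, adjusted p = 0.441). Its log2 fold change was 0.26 without sh-SAPCD2 replicate 1. CELSR1 had 1.09, 0.654, 0.237 and 0.446 CPM, low in all libraries (−1.32, SE 0.534, adjusted p = 0.123). In CPM per kilobase CELSR2 and CELSR3 were alike in sh-Scb libraries (5.51 and 5.47) and stood at 7.39 and 6.07 in sh-SAPCD2 libraries.

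Of 14 planar cell polarity partners of CELSR proteins, 13 were tested, 3 were called higher and 0 lower, with a median log2 fold change of 0.25. They were the cytoplasmic transducers DVL3 (173.7 ± 4.79 to 308.5 ± 12.3 CPM, 0.83, adjusted p = 0.0043) and DVL1 (0.98, adjusted p = 0.0255) and the receptor FZD6 (0.54, adjusted p = 0.0335). The sh-SAPCD2 libraries of DVL1 were far apart (SD 43.9 CPM against 1.22 CPM in sh-Scb). Higher calls in the list rose without either sh-SAPCD2 library and fell without either sh-Scb library, as did calls over all genes tested.

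Of the 4 FAT genes, FAT3 was called lower. FAT3, which shapes neurites in retina, had 7.06, 7.56, 3.16 and 1.53 CPM. Both sh-SAPCD2 libraries were below both sh-Scb libraries, and they differed from each other more than the sh-Scb libraries did. The log2 fold change was −1.65 (SE 0.352, 95% interval −2.51 to −0.80, adjusted p = 0.0211) and ran from −2.26 to −1.21 with 1 library left out. FAT1, a large tumour-linked cadherin, had 0.652, 0.618, 0.316 and 0.0955 CPM, the last at the floor of its library (adjusted p = 0.113). FAT4 (3.04, 1.60, 1.98 and 1.34 CPM, adjusted p = 0.410) and FAT2 (1.27, 1.89, 1.98 and 1.53 CPM, adjusted p = 0.785) had overlapping groups. Of 7 FAT and Dachsous partners, 6 were tested. The FAT4 ligand DCHS1 rose from 152.6 ± 0.448 to 245.3 ± 13.9 CPM (0.69, adjusted p = 0.00692) and FJX1, a Golgi kinase-family gene of the Fat pathway, from 40.5 ± 1.32 to 100.1 ± 30.4 CPM (1.31, adjusted p = 0.0098), whereas LIX1 fell (−1.18, adjusted p = 0.0204).

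Proteases that shed or cut these families moved both ways. All 9 were tested, 3 were called higher and 1 lower, with a median log2 fold change of 0.31. MMP14, a membrane-bound matrix metalloprotease, rose from 103.4 ± 1.58 to 351.5 ± 50.1 CPM (1.76, SE 0.128, adjusted p = 0.00201). The sheddases ADAM10 (0.63, adjusted p = 0.0194), which releases the ectodomains of N-cadherin and gamma protocadherins, and ADAM15 (0.73, adjusted p = 0.0236) rose. APH1B, a gamma-secretase subunit, fell from 16.6 ± 1.80 to 8.65 ± 1.56 CPM (−0.94, SE 0.193, adjusted p = 0.0189). Of the genes tested in the 8 partner lists, whose numbers are given list by list above, 13 were called higher and 12 lower. Over all genes tested the shares were 12.4% and 12.5%. Calls over all genes tested fell without an sh-Scb library and rose without an sh-SAPCD2 library, as did these list calls.

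**Figure D4:**
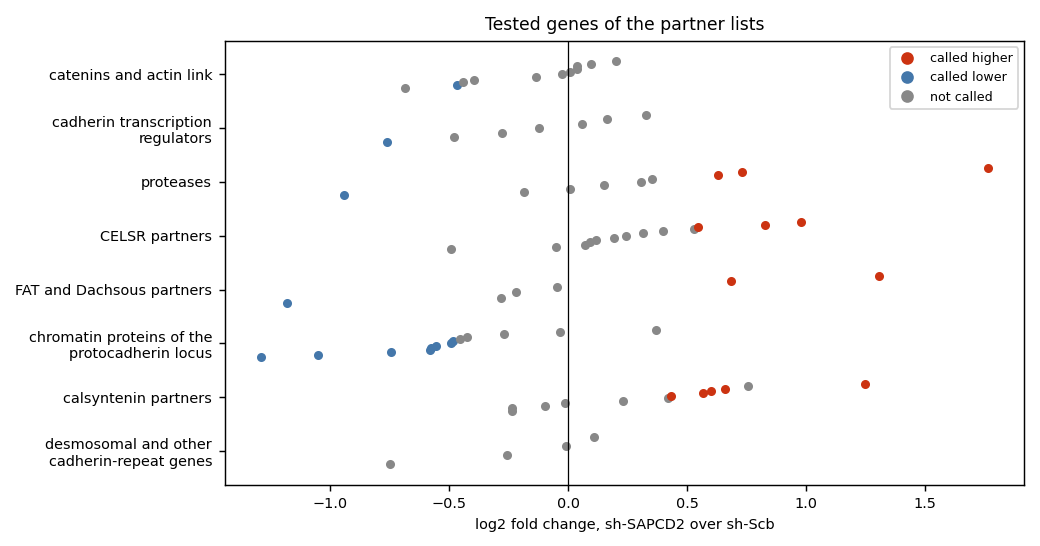
Log2 fold change of each tested gene in the 8 partner lists, 1 point per gene (their heights within a list only keep points apart), with genes called higher in red, called lower in blue and not called in grey. The chromatin and insulator list lies mostly below 0 (median −0.49, 8 of 13 called lower) and the calsyntenin partners mostly above (median 0.43, 5 of 12 called higher). The lists were chosen with earlier results of these data known, so these counts are a description.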

How the data were processed

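RNA-seq of 4 libraries (sh-Scb 1 and 2, sh-SAPCD2 1 and 2) was used. Paired reads of 150 bp were placed on hg38 by the authors with HISAT2 2.2.0, followed by StringTie 2.1.2. The deposited table holds raw whole-number counts per Ensembl gene. How StringTie output became counts, the Ensembl release, the strand setting and the treatment of reads with several matches are not given in the sources used here, so a gene and an antisense neighbour cannot be told apart.

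After TMM scaling (factors 0.987 to 1.009), counts were tested by the edgeR 4.0.16 quasi-likelihood method (R 4.3.3), group as the only term, after filterByExpr (minimum count 10, minimum total 15). P-values were Benjamini-Hochberg adjusted over all 18779 tested genes and called under 0.05. SE is the absolute log2 fold change divided by the root of F. Values ± SD are means of 2 libraries. CPM per kilobase used the merged exon length. The script was tested on simulated data. GENCODE 44 gave positions and types for 17467 (93%) of the tested genes, and RefSeq the promoters. Between libraries, replicates differed by more than sampling noise (chi-square per degree of freedom 4.47 for sh-Scb and 38.6 for sh-SAPCD2). The sh-SAPCD2 pair thus differed far more than the sh-Scb pair. This does not show whether the libraries of a group came from separate cultures.

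Named members were, by rule, all called members, all CLSTN, CELSR and FAT genes, CDH1 to CDH5, CDH11 and the 5 most abundant per length, and at most 5 called genes of a partner list. Other members, and SETDB1, STAG2, DNMT3B and CTNNB1, were named after their values were seen. In all, 2 listed genes are not reported here. The members and lists were chosen with earlier results of these data known. Alternatives were DESeq2 1.42.0, its size factors, library totals, no filter, a mean of at least 1 CPM, protein-coding genes only, the replicate block, a loess correction for GC content and length (span 0.3), both together and each library left out. A count without the clustered protocadherins was chosen after seeing the data.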

Additional observations from a re-analysis of the deposited data

How the results depend on the processing

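Scaling by DESeq2's size factors or by library totals and restriction to protein-coding genes kept the counts of called members within 1.5 times (9 to 11 higher, 8 to 10 lower). Without a filter 34935 genes were tested, and 1081 were called higher and 1180 lower. Of 93 members tested, 3 were then higher and 2 lower, and 1 and 2 with an absolute log2 fold change over 1. The summed alpha and gamma arrays then missed the threshold at 0.45 and 0.40, as did SAPCD2 at −0.91, and the partner lists held 5 higher and 4 lower calls. DESeq2 gave 14 higher members, 5 of them over the fold criterion. Higher calls over all genes were 2670 with DESeq2 and 2326 in the main fit. DESeq2 gave no adjusted p for CDH20 and lost PCDH19 and PCDHA3. The loess correction gave 15 and 5 among 82 tested members, and 22 lower calls in the partner lists. Over all 18779 genes tested it gave 3802 higher and 3504 lower calls, and the cause was not tested. With 1 library left out, called members were 6 to 18 higher and 3 to 11 lower, 5 to 8 and 3 to 9 over the fold criterion, the alpha array 0.40 to 0.49, the gamma array 0.34 to 0.45 and the partner lists 5 to 23 higher and 4 to 27 lower. Of the 27 members named by the rule, those that changed sign with 1 library left out were CDH11 (−0.000702 to 0.069), FAT2 (−0.11 to 0.46) and FAT4 (−0.88 to 0.043), and CELSR3 turned to −0.079 under the loess correction and −0.077 with the replicate block added. Lower calls were 5 among members sharing no exonic base and 4 without the clustered protocadherins. Same-numbered libraries did not deviate together (correlation −0.0188). A shared effect smaller than the difference between the sh-SAPCD2 libraries could be missed, so whether the numbers pair them is not settled. With the replicate block 19 of 82 tested members were higher, 9 of them over the fold criterion, where 2860 of 18779 genes were higher. The gamma array then missed the threshold at 0.40, CELSR2 was lost and CDH24 was called (edgeR adjusted p = 0.0193). With the loess correction added 19 members were higher, 7 of them over the fold criterion, with 23 lower partner calls. In that fit 3817 genes were higher and 3454 lower. With 2 libraries a group, a loss of 1 leaves a single library assumed to vary like the other group. Genes under about 1 CPM are limited by depth.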

Other observations

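The beta array also holds unprocessed pseudogenes, which the protein-coding rule left out. PCDHB18P had 8.36, 8.54, 3.91 and 3.60 CPM in sh-Scb 1, sh-Scb 2, sh-SAPCD2 1 and sh-SAPCD2 2, a log2 fold change of −1.17 (edgeR adjusted p = 0.00964), and PCDHB19P had 4.53, 5.74, 2.57 and 2.102 CPM (−1.14, adjusted p = 0.0236). PCDHB17P had 0.724, 0.654, 0.711 and 1.11 CPM with overlapping groups (0.41, adjusted p = 0.504). Both called pseudogenes lie between PCDHB14 and PCDHB15, at chr5:141234551-141236918 and chr5:141239923-141242293, and were named after their values were seen. An exonic share of 36.4% of PCDHB19P overlaps a gene on the other strand.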
